A study of Mus musculus with 12 samples.

Results

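Brown and beige thermogenic genes were followed here as a set of 10: Ucp1, Cox8b, Cox7a1, Kcnk3, Slc36a2, Otop1, Dio2, Prdm16, Ppargc1a and Esrrg. They were chosen by symbol as genes known from brown and beige fat. All 10 were found, among 26639 features listed for white adipose tissue (WAT) and 22851 listed for cultured adipocytes. Messenger RNA had been sequenced from the WAT of mice with an adiponectin-driven conditional knockout (cKO) of Xap5 and of wild-type (WT) mice, both on postnatal day 42. Cultured adipocytes of XAP5 KO and WT genotype were taken on day 8 of induction. They had been grown from pre-adipocytes of the subcutaneous fat of newborn cKO or WT mice and induced with insulin, dexamethasone and IBMX, a phosphodiesterase inhibitor that raises cyclic AMP. Each of the 4 groups held 3 libraries. Adiponectin is made by mature adipocytes, so other cells of the tissue and undifferentiated cells of a culture are not the target of the deletion. The labels give neither the sex of the mice nor the depot of the tissue, and nothing in them states that the 3 libraries of a group stem from different animals or dishes. The p-values thus describe the spread between these libraries alone, and that spread may be technical.

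Thermogenic adipocytes burn fuel for heat. Uncoupling protein 1, encoded by Ucp1, lets protons return across the inner mitochondrial membrane without making ATP, so that respiration by a dense mitochondrial network releases its energy as heat. In the cold, noradrenaline acts on beta-adrenergic receptors, cyclic AMP rises, and transcription of Ucp1, Dio2 and Ppargc1a is switched on. Brown fat holds such cells in its own depots, and beige adipocytes of like character arise within white fat, most readily in subcutaneous depots of young mice.

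The sequences just upstream of 4 of the genes are shown as examples that carry, or lack, short elements through which cyclic AMP and nuclear receptors are known to act. Whether these elements bear on how the genes behaved in the tissue was not tested. Each is the run of 250 bases before an annotated start of transcription (RefSeq, GRCm38.p6), written 5′ to 3′ on the gene's own strand. Capitals mark matches to TGACGTCA, the cyclic AMP response element, to its half-site TGACG, to AGGTCA, a nuclear receptor half-site, to TCAAGGTCA, the estrogen-related receptor element, and to TATAAA, the TATA box, on either strand. AGGTCA is contained in TCAAGGTCA, and TGACG in TGACGTCA.
Dio2, chr12:90739039-90739288, minus strand: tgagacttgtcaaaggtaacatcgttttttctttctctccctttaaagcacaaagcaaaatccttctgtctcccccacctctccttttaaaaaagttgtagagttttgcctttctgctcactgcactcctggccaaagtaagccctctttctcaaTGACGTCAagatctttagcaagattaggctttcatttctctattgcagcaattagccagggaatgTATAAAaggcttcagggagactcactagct
Ucp1, chr8:83290098-83290347, plus strand: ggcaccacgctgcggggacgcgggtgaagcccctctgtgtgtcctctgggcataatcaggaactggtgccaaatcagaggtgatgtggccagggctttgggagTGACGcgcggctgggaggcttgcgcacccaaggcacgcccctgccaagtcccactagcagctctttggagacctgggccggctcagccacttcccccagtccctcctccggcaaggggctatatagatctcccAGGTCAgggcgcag
Ppargc1a, chr5:51567726-51567975, minus strand: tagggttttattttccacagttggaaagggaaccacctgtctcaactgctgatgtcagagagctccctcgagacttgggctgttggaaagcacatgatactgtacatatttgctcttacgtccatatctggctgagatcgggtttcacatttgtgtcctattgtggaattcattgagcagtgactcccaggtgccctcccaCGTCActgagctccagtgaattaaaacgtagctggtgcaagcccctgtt
Cox8b, chr7:140900447-140900696, minus strand: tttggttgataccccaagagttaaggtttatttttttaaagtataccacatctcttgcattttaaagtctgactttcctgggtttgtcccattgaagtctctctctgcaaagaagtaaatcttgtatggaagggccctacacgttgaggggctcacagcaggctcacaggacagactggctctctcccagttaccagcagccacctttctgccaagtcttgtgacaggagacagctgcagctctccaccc

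The Dio2 window held the whole cyclic AMP response element, beginning 95 bases before the start, and a TATA box beginning 30 bases before it. The Ucp1 window held the TGACG half-site at 147 bases and AGGTCA at 14 bases before the start. In the Ppargc1a window the half-site lay on the opposite strand, printed as CGTCA, 49 bases before the start. The Cox8b window, and those of Cox7a1, Otop1 and Prdm16, held none of the 5 motifs, which says only that these letters are not in these 250 bases. Of 4 windows listed for Esrrg, 1 held a TATA box on the opposite strand. Windows were found for 8 of the 10 genes, and Kcnk3 and Slc36a2 had no entry. Among 32851 windows of the same length, 1.55% held TGACGTCA, 17.8% TGACG, 14.0% AGGTCA, 12.4% TATAAA and 0.387% TCAAGGTCA. A match is a description of the sequence, and no binding was measured.

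Library totals ran from 33132906 to 33997204 counts in cKO WAT and from 28844370 to 30704234 in WT WAT. They ran from 10863158 to 21773610 in KO cultures and from 11601138 to 12401278 in WT cultures. Levels are TMM-scaled CPM, a scaling that gave factors of 1.23 to 1.30 to cKO WAT and 0.781 to 0.796 to WT WAT. With scaling by library size only, all genes in WAT had a median log2 fold change of 0.80 in place of 0.12, and the genes that passed the test split into 8838 higher and 1427 lower in place of 4595 higher and 3947 lower. After correction for a trend with transcript length and GC content, the median was -0.11 and the split 2726 higher and 4459 lower. Fam50a, the mouse gene for Xap5, stood at 16.8 to 28.9 CPM in cKO WAT and at 32.5 to 36.5 CPM in WT WAT (log2 fold change -0.60, edgeR adjusted p = 0.0395). It stood at 41.1 to 46.2 CPM in KO cultures and at 45.2 to 57.9 CPM in WT cultures (-0.26, edgeR adjusted p = 0.134), so the culture labels rest on the genotype given and not on the level of this gene. All 10 adipocyte markers were detected in every group. Some WAT libraries stood apart by markers of other tissues. The 17 skeletal muscle markers summed to 1973 CPM in cKO replicate 1, 347 in replicate 2 and 68.0 in replicate 3, and to 76.7, 292.6 and 2706 CPM in WT replicates 1 to 3. The 8 epithelial markers summed to 928.6 CPM in cKO replicate 3 and to 3.51 to 45.6 CPM in the other 5 WAT libraries.

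In WAT the thermogenic genes moved apart. The genes for the muscle and brown fat subunits of cytochrome c oxidase and for the membrane proteins Kcnk3, Slc36a2 and Otop1 were 3.22- to 5.88-fold lower in cKO than in WT tissue, and Prdm16 was 1.99-fold lower. Dio2 was 7.43-fold higher in cKO tissue. Ucp1 was lower in each cKO library than in any WT library but missed the threshold, and Ppargc1a and Esrrg did not pass. All 10 genes were tested by edgeR's quasi-likelihood test, and a gene passed at a Benjamini-Hochberg adjusted p under 0.05 over all genes. In that sense 6 were lower and 1 was higher in cKO, beside a background in which 24.2% of all 16293 genes tested passed as lower and 28.2% as higher (52.4% in either direction). The cKO and WT libraries did not overlap for 7 genes that were lower and 1 that was higher in cKO, beside 29.3% of all genes without overlap as lower and 35.1% as higher. The median log2 fold change of the 10 was -1.75, against 0.12 for all genes.

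**Figure D1:**
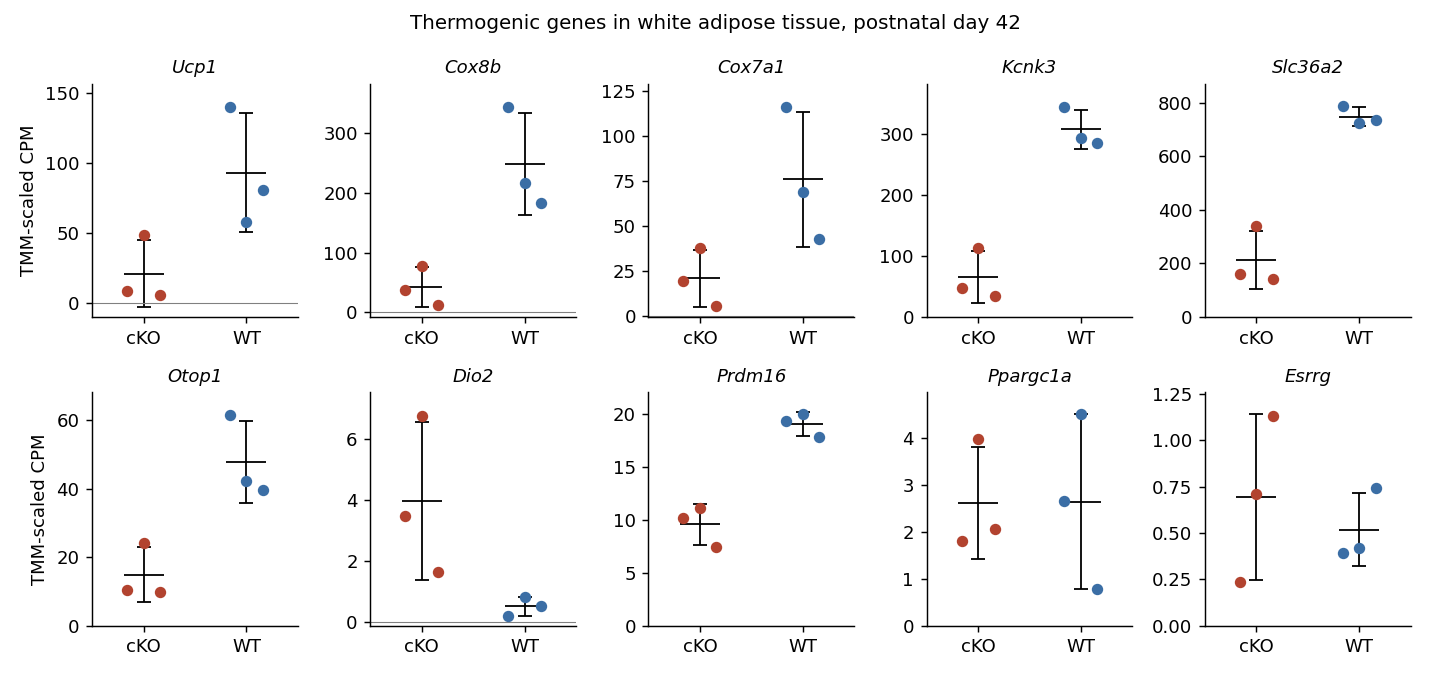
TMM-scaled CPM of the 10 thermogenic genes in WAT on postnatal day 42; points are libraries (replicates 1 to 3 from left to right in each group), bars the mean and 1 SD (n = 3), and each panel has its own linear axis. The cKO and WT points do not overlap for 8 genes, with Dio2 the one that is higher in cKO, and overlap for Ppargc1a and Esrrg.

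Ucp1 (chromosome 8, 83290348 to 83298456, GRCm38), the uncoupling protein itself, stood at 8.95, 48.5 and 6.14 CPM in cKO replicates 1 to 3 and at 140.1, 58.0 and 81.0 CPM in WT replicates 1 to 3. The highest cKO library lay just under the lowest WT library. The log2 fold change was -2.13 (SE 0.78, edgeR adjusted p = 0.0536). Without cKO replicate 2 it was -3.65 (edgeR adjusted p = 0.000968). Over the 16 alternatives tried the change lay between -3.65 and -1.49 with adjusted p from 0.000968 to 0.184, and 8 passed.

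Cox8b (chromosome 7, 140898942 to 140900446), the subunit 8 isoform of muscle and brown fat, stood at 37.1, 77.7 and 11.8 CPM in cKO and at 344.7, 217.3 and 182.8 CPM in WT WAT. Every WT library was far above the highest cKO library. Its log2 fold change was -2.56 (SE 0.63, edgeR adjusted p = 0.0124). Cox7a1 (chromosome 7, 30184171 to 30186030), the corresponding subunit 7a isoform, stood at 19.5, 37.5 and 5.71 CPM in cKO and at 116.3, 68.7 and 42.6 CPM in WT WAT. Here cKO replicate 2 came close to WT replicate 3. Its change was -1.86 (SE 0.65, edgeR adjusted p = 0.0461). The call for Cox7a1 was lost with library size only (-1.20, edgeR adjusted p = 0.133), after the length and GC correction (-1.54, 0.0658), and without WT replicate 1 (-1.42, 0.147), 2 (-1.93, 0.100) or 3 (-2.15, 0.0505) or cKO replicate 1 (-1.81, 0.114). Both genes are also expressed in striated muscle. WT replicate 1 had the highest Cox8b and Cox7a1 of all 6 libraries and the lowest muscle marker sum of its group, 76.7 CPM. WT replicate 3 had the lowest of both genes in its group and the highest sum, 2706 CPM. In cKO tissue replicate 3 had the lowest of both genes and also the lowest sum, 68.0 CPM. There replicate 2 had the highest of both genes and replicate 1 the highest sum, 1973 CPM. Of 16 muscle markers tested, 1 passed as higher and none as lower, beside 28.2% higher and 24.2% lower among all genes. Myh7 was at 0 in every WT library. The part of muscle in the reads of Cox8b and Cox7a1 was not tested.

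Kcnk3 (chromosome 5, 30588170 to 30625270), a potassium leak channel that sets the resting membrane potential, stood at 48.0, 113.3 and 34.2 CPM in cKO and at 344.9, 293.1 and 285.1 CPM in WT WAT. The WT libraries lay close together and all far above the highest cKO library. Its log2 fold change was -2.24 (SE 0.43, edgeR adjusted p = 0.00459). Slc36a2 (chromosome 11, 55158468 to 55185099), a proton-coupled amino acid transporter used as a surface marker of brown and beige adipocytes, had the most reads of the 10, with 161.5, 338.3 and 141.3 CPM in cKO and 788.7, 724.4 and 734.6 CPM in WT WAT. Its change was -1.81 (SE 0.33, edgeR adjusted p = 0.00407). Otop1 (chromosome 5, 38277404 to 38304217), the proton channel otopetrin 1, stood at 10.5, 24.2 and 9.86 CPM in cKO and at 61.5, 42.3 and 39.4 CPM in WT WAT. Its change was -1.69 (SE 0.38, edgeR adjusted p = 0.00839). In all 3 genes cKO replicate 2 was the highest of its group and still below every WT library. Each of the 3 passed with library size only (-1.58 for Kcnk3, -1.14 for Slc36a2 and -1.02 for Otop1), where the median of all genes was 0.80. Bulk RNA cannot tell fewer cells of a type from less RNA per cell, and the adipocyte markers moved with these genes. Of the 10 markers 9 passed as lower, beside 24.2% of all genes. The marker sum was 7804 to 20084.6 CPM in cKO and 63036.9 to 66520.8 CPM in WT WAT.

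Dio2 (chromosome 12, 90724552 to 90739038) encodes the deiodinase that turns thyroxine into the active hormone triiodothyronine within the cell. It had 146, 276 and 73 reads in cKO replicates 1 to 3 and 5, 20 and 13 reads in WT replicates 1 to 3. This made 3.48, 6.78 and 1.65 CPM in cKO and 0.218, 0.835 and 0.537 CPM in WT WAT. Every cKO library was above every WT library. The log2 fold change was 2.89 (SE 0.68, edgeR adjusted p = 0.0105), and it lay between 2.05 and 3.56 over the 16 alternatives, of which 15 passed. Macrophage markers rose in the same tissue for 9 of 10, with none at 0, and summed to 3735, 1888 and 4107 CPM in cKO and to 449.4, 418.6 and 640.5 CPM in WT WAT. Dio2 was highest in cKO replicate 2, where the macrophage sum was the lowest and the adipocyte sum the highest of the group, and lowest in replicate 3, where the order was the opposite. Preadipocyte markers rose for 5 of 8, with sums of 1279.8 to 2000.6 CPM in cKO and 538.2 to 620 CPM in WT WAT. Schwann cell markers rose for 4 of 7, with sums of 929.5 to 988.2 CPM in cKO and 264.3 to 902.7 CPM in WT WAT. Among all genes 28.2% passed as higher. With library size only 7 preadipocyte and 7 Schwann cell markers passed as higher, beside 8838 of all 16293 genes. The part of macrophages, preadipocytes and Schwann cells in the Dio2 reads was not tested.

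Prdm16 (chromosome 4, 154316122 to 154637360), the transcriptional regulator that holds brown and beige identity, stood at 10.2, 11.2 and 7.45 CPM in cKO and at 19.4, 20.0 and 17.9 CPM in WT WAT. Both groups were tight and did not overlap. Its log2 fold change was -0.99 (SE 0.19, edgeR adjusted p = 0.00484), and -0.31 (edgeR adjusted p = 0.174) with library size only. Ppargc1a (chromosome 5, 51454249 to 52115853), the coactivator PGC-1 alpha that drives mitochondrial gene expression, stood at 1.81, 3.98 and 2.06 CPM in cKO and at 2.66, 4.51 and 0.785 CPM in WT WAT. The groups lay over each other, and the change of -0.02 (SE 0.63, edgeR adjusted p = 0.983) took either sign over the alternatives, from -1.03 to 0.66, with none past the threshold. Esrrg (chromosome 1, 187608510 to 188214885), an orphan nuclear receptor that works with PGC-1 alpha, was near the limit of detection, with 10, 29 and 50 reads in cKO and 9, 10 and 18 reads in WT WAT. Its change was 0.42 (SE 0.65, edgeR adjusted p = 0.609), and it turned to -0.43 after the length and GC correction and to -0.14 without cKO replicate 3.

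When both libraries rich in muscle markers, cKO replicate 1 and WT replicate 3, were left out, the log2 fold changes were -2.65 for Cox8b, -2.10 for Cox7a1, -2.11 for Kcnk3, -1.66 for Slc36a2, -1.61 for Otop1, -1.08 for Prdm16 and 2.99 for Dio2. With 2 libraries a group only Kcnk3 of the 10 passed (edgeR adjusted p = 0.0480), and 3712 of all genes passed in place of 8542.

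The 10 genes shared an order of libraries within the cKO group. Replicate 2 was the highest cKO library for 9 of the 10 genes, Esrrg being the exception, and replicate 3 the lowest for 8. The adipocyte markers had the same order, with replicate 2 highest for 9 of 10 and replicate 3 lowest for all 10. In WT tissue replicate 1 was highest for 6 thermogenic genes and replicate 3 lowest for 6, while adipocyte markers were lowest in replicate 1 for 7 of 10.

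Levels were also expressed relative to the adipocytes' own transcripts, as a percent of the geometric mean CPM of 10 adipocyte markers (552.0, 1075.6 and 403.1 CPM in cKO, and 2961.9, 3325.6 and 3217.1 CPM in WT). On this scale Ucp1 was at 2.55% ± 1.69 in cKO and 3.00% ± 1.55 in WT WAT, Cox8b at 5.62% ± 2.36 in cKO and 7.95% ± 3.22 in WT, and Kcnk3 at 9.23% ± 1.13 in cKO and 9.77% ± 1.62 in WT (SD, n = 3 each). Cox7a1 was at 2.81% ± 1.21 in cKO and 2.44% ± 1.34 in WT, and Otop1 at 2.20% ± 0.273 in cKO and 1.52% ± 0.478 in WT. For these 5 genes the cKO and WT libraries overlapped. Slc36a2 was at 29.3%, 31.5% and 35.1% in cKO and at 26.6%, 21.8% and 22.8% in WT, so that each cKO library was above every WT library. Prdm16 was at 1.85%, 1.04% and 1.85% in cKO and at 0.654%, 0.602% and 0.555% in WT, again with no overlap and in the opposite direction to its CPM. Ppargc1a was at 0.403% ± 0.0963 in cKO and 0.0832% ± 0.0558 in WT, and Dio2 at 0.557% ± 0.127 in cKO and 0.0164% ± 0.00888 in WT. Esrrg was higher in each cKO library too, at 0.0431% to 0.281% against 0.0126% to 0.0231% in WT. These ratios are given as a description, with no test: an exact permutation test of 3 against 3 libraries cannot go below p = 0.10. They would count only adipocyte transcripts if no other cell gave reads of the gene. They would stand for levels per adipocyte only if the markers themselves kept their level in each cell. A fall of the markers within each adipocyte would raise every ratio in cKO. None of this was tested.

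**Figure D2:**
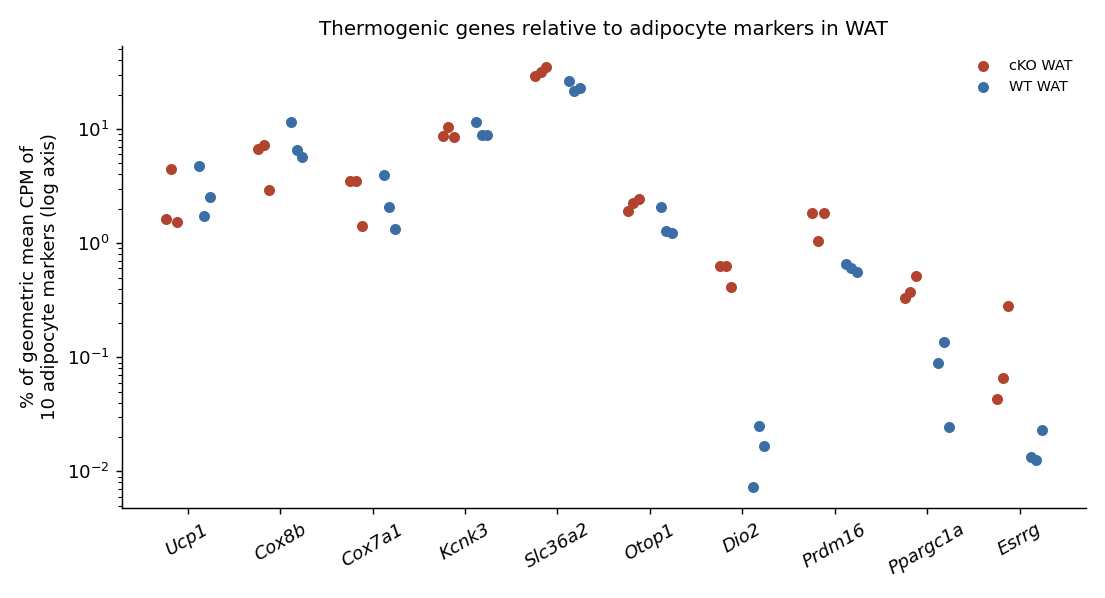
Level of each thermogenic gene in WAT as a percent of the geometric mean CPM of 10 adipocyte markers in the same library (log axis); points are libraries, cKO left and WT right for each gene, replicates 1 to 3 from left to right. The libraries of both groups overlap for Ucp1, Cox8b, Cox7a1, Kcnk3 and Otop1, and the cKO libraries lie above the WT libraries for Slc36a2, Dio2, Prdm16, Ppargc1a and Esrrg.

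Between genes, levels were compared only per kilobase of exon. Cox8b led cKO WAT at 117.2 ± 92.4 CPM per kb, where the 6 highest genes followed each other with overlapping ranges. In WT WAT Cox8b led at 689.7 ± 236.9 CPM per kb, followed by Slc36a2 (230.2 ± 10.6), Cox7a1 (141.8 ± 69.9), Kcnk3 (77.4 ± 8.17), Ucp1 (56.9 ± 25.9), Otop1 (13.9 ± 3.48) and Prdm16 (2.05 ± 0.120), all as CPM per kb with SD and n = 3. In that order Cox7a1 overlapped Kcnk3, and Kcnk3 overlapped Ucp1. At the low end of WT WAT Ppargc1a (0.402), Dio2 (0.0911) and Esrrg (0.0834 CPM per kb) each overlapped the next of these 3. Dio2 stood above Ppargc1a in mean in cKO WAT, at 0.683 against 0.397 CPM per kb, and their ranges overlapped.

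The genes with the most similar pattern were sought for the 3 members with the highest CPM in WT WAT, by the root mean square difference of centred log2 CPM over the 6 WAT libraries among 14413 genes. Slc36a2 was nearest to Aldh5a1 (0.05 log2 units), which encodes succinate semialdehyde dehydrogenase, Tst (0.07) and Cib2 (0.08). Kcnk3 was nearest to Eci1 (0.11), an isomerase of fatty acid oxidation, Amy1 (0.12) and Cox6a1 (0.14). Cox8b was nearest to NewGene_3803 (0.26), a locus without a gene name, Cidea (0.27) and 1190005I06Rik (0.28). These distances are descriptions over libraries that share their group difference.

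In culture the thermogenic genes were at low to moderate levels and most did not differ beyond the spread between libraries. Cox8b was the exception and was 1.86-fold higher in KO than in WT cultures, the opposite of its direction in tissue. It stood at 26.1, 26.2 and 22.8 CPM in KO replicates 1 to 3 and at 16.8, 10.0 and 13.5 CPM in WT replicates 1 to 3, with no overlap (log2 fold change 0.90, SE 0.16, edgeR adjusted p = 0.000661). Of 7 genes tested in culture this was the only one higher and none was lower, beside 8.94% of 12587 genes higher and 10.6% lower (19.5% in either direction). Of the 10 genes, Cox8b was higher and Prdm16 lower without overlap, beside 18.0% of all genes without overlap as higher and 18.8% as lower. The median of the 7 was 0.03 and that of all genes -0.02. With 1 fit over all 4 groups, which shares the wider spread of the tissue, Cox8b did not pass (0.91, edgeR adjusted p = 0.336) and 146 of all genes passed in place of 2459. Muscle markers, for a gene also known from muscle, summed to 30.3 to 36.3 CPM in KO and 22.7 to 25.6 CPM in WT cultures, with Ckm, Myh4 and Myh7 at 0 in KO and Myh4 at 0 in WT. Of 8 of them tested, 1 passed as higher, beside 8.94% of all genes.

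**Figure D3:**
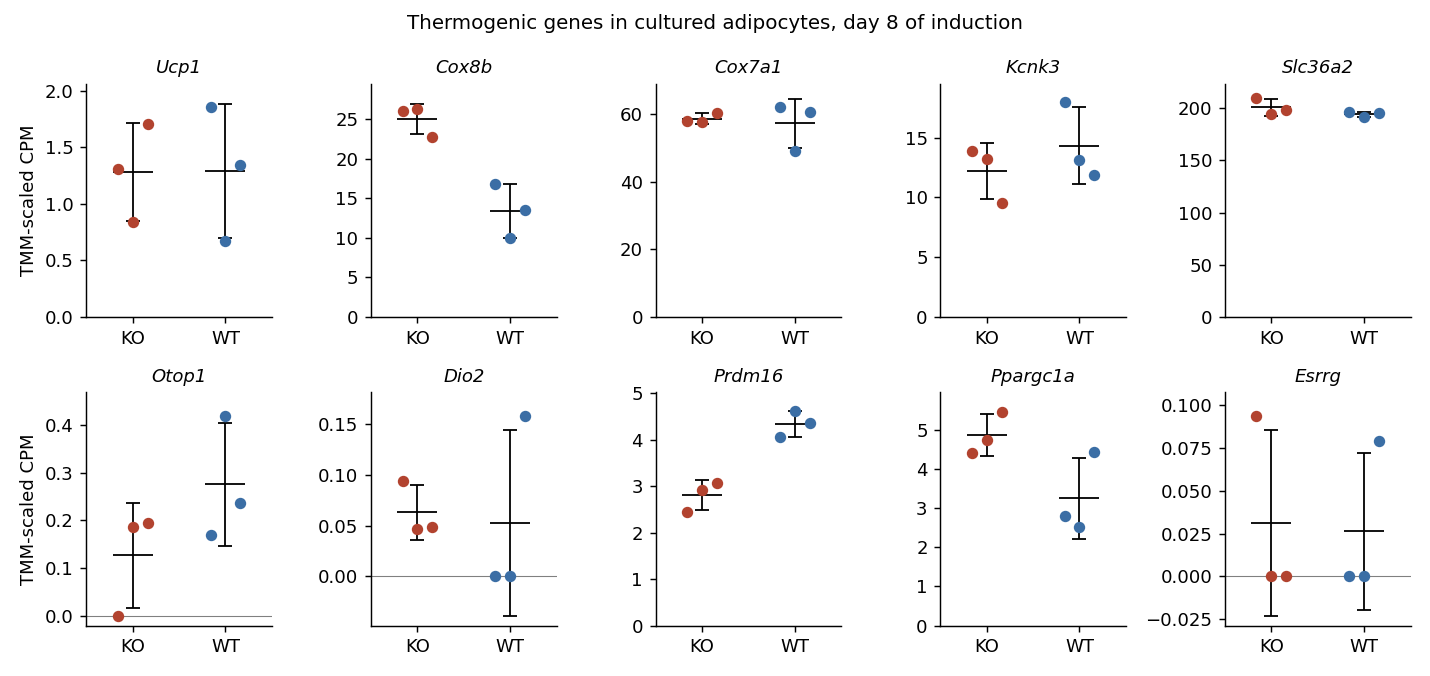
TMM-scaled CPM of the 10 thermogenic genes in cultured adipocytes on day 8 of induction; points are libraries (replicates 1 to 3 from left to right in each group), bars the mean and 1 SD (n = 3), and each panel has its own linear axis. Cox8b is higher and Prdm16 lower in every KO library than in any WT library, and Otop1, Dio2 and Esrrg rest on 0 to 5 reads a library.

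Prdm16 stood at 2.44, 2.93 and 3.07 CPM in KO and at 4.06, 4.62 and 4.36 CPM in WT cultures. The groups did not overlap, but the log2 fold change of -0.61 (SE 0.24) missed the threshold (edgeR adjusted p = 0.0713). It passed with library size only (-0.66, edgeR adjusted p = 0.0481) and was -0.26 (0.417) after the length and GC correction. Ppargc1a stood at 4.41, 4.74 and 5.46 CPM in KO and at 2.79, 2.52 and 4.44 CPM in WT cultures. The groups overlapped by a small margin, and the change was 0.59 (SE 0.24, edgeR adjusted p = 0.0922). Without WT replicate 3 it was 0.89 (edgeR adjusted p = 0.0172), the only 1 of 6 fits with a library left out that passed. Over these 6 the change ran from 0.45 to 0.89, with edgeR adjusted p up to 0.321. Of all 14 alternatives 2 passed. Adipocyte markers summed to 25608.3 to 30486.9 CPM in KO and 19244.0 to 21110.0 CPM in WT cultures. Of 9 tested, 4 passed as higher and none as lower, beside 8.94% higher and 10.6% lower among all genes. With library size only 3 passed as higher, and 8 after the length and GC correction. Their direction was that of Cox8b, and a link between the 2 was not tested.

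The remaining genes gave no call in culture. Slc36a2 was the most abundant by CPM in culture, at 209.9, 194.7 and 197.8 CPM in KO and 196.0, 191.4 and 194.9 CPM in WT cultures (log2 fold change 0.05, SE 0.10, edgeR adjusted p = 0.782). Cox7a1 was at 57.9, 57.6 and 60.5 CPM in KO and 62.1, 49.1 and 60.6 CPM in WT cultures (0.03, SE 0.12, edgeR adjusted p = 0.864). For these 2 genes the standard errors were the smallest of the 7 tested. Kcnk3 was at 13.9, 13.2 and 9.50 CPM in KO and 18.0, 13.1 and 11.9 CPM in WT cultures (-0.24, SE 0.18, edgeR adjusted p = 0.371). Ucp1 was at 1.31, 0.836 and 1.71 CPM in KO and 1.86, 0.672 and 1.35 CPM in WT cultures (-0.02, SE 0.40, edgeR adjusted p = 0.983). Otop1 had 0, 4 and 4 reads in KO and 2, 5 and 3 reads in WT cultures, Dio2 had 1 read in each KO library and 0, 0 and 2 reads in WT, and Esrrg had 1, 0 and 0 reads in KO and 0, 0 and 1 read in WT. These 3 did not pass the filter on low counts and were not tested there, and a difference was not detectable at this depth.

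The cultures ranked the genes differently from the tissue, and since both tables were deposited separately the levels are only set side by side. Per kilobase, Cox7a1 led the KO cultures at 109.6 ± 3.02 CPM per kb, followed by Cox8b (69.6 ± 5.40) and Slc36a2 (61.7 ± 2.48), of which Cox8b and Slc36a2 overlapped. In the WT cultures Cox7a1 led at 107.0 ± 13.3 CPM per kb, followed by Slc36a2 (59.6 ± 0.734) and Cox8b (37.3 ± 9.46), with no overlap between these 3. Ucp1 was at 0.785 ± 0.266 CPM per kb in KO and 0.790 ± 0.364 in WT cultures.

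The effect of the knockout in tissue was set against that in culture by an interaction over all 12 libraries. This fit took 1 spread per gene over all 4 groups, although the spread was wider in tissue than in culture. Its p-values rest on that shared spread and may be too small. For 4 of the 10 genes the effects differed, always with the lower value in tissue: Cox8b (difference of log2 fold changes -3.42, SE 0.69, edgeR adjusted p = 0.00136), Kcnk3 (-1.97, SE 0.50, 0.00545), Slc36a2 (-1.83, SE 0.35, 0.000928) and Cox7a1 (-1.86, SE 0.68, 0.0373). None was higher, beside 27.7% of 14463 genes higher and 21.1% lower (48.8% in either direction). The split over all genes was 4009 higher and 3052 lower, 7331 and 1198 with library size only, and 2528 and 4142 after the length and GC correction. For Ucp1 the difference was -2.09 (SE 1.12, edgeR adjusted p = 0.14), and without WAT cKO replicate 2 it was -3.55 (edgeR adjusted p = 0.000374). That fit was the only 1 of 21 alternatives to pass. Over these the Ucp1 difference ran from -3.55 to -1.46, with adjusted p up to 0.318 (limma voom). For Prdm16 the difference was -0.34 (SE 0.27, edgeR adjusted p = 0.307), so the drop of Prdm16 in tissue was not shown to differ from its change in culture. It passed at -0.93 (edgeR adjusted p = 0.0151) after the length and GC correction and was 0.30 (0.342) with library size only. Cox7a1 did not pass without WAT WT replicate 1 (-1.42, edgeR adjusted p = 0.103) or 2 (-1.93, 0.0553), without WAT cKO replicate 1 (-1.79, 0.0699), or without any of the 6 culture libraries, each left out in turn. Nor did it pass with library size only (-1.23, edgeR adjusted p = 0.133) or after the length and GC correction (-1.42, 0.0899). The differences for Dio2 (2.85, SE 1.78), Otop1 (-0.80, SE 1.05) and Esrrg (0.84, SE 2.15) rested on 0 to 5 reads a culture library and did not pass.

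**Figure D4:**
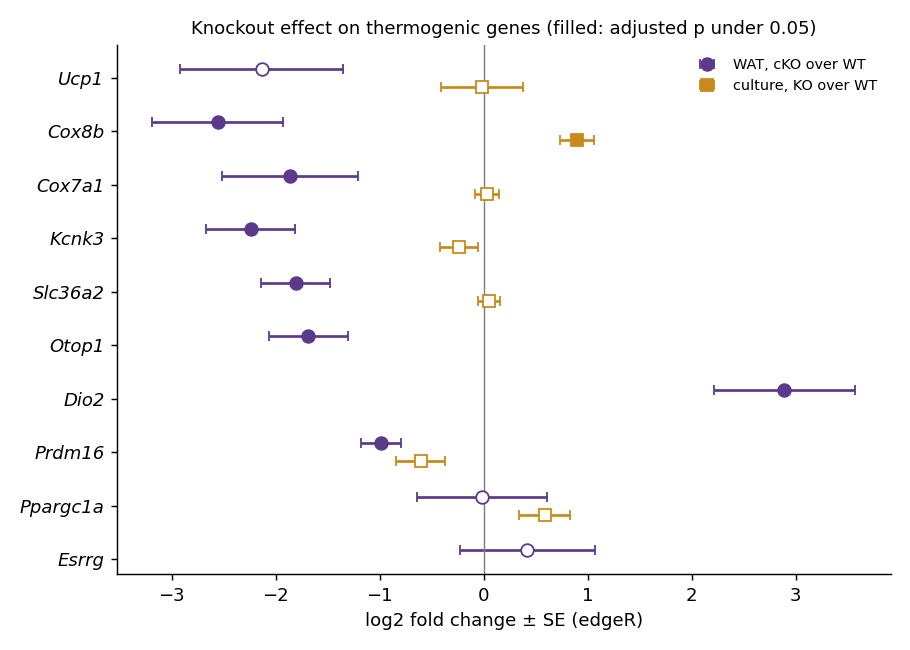
Knockout effect on each thermogenic gene as log2 fold change from edgeR, cKO over WT in WAT (circles) and KO over WT in culture (squares); bars are 1 SE and filled symbols passed at an adjusted p under 0.05. Culture values of Otop1, Dio2 and Esrrg are missing because these were not tested, and Cox8b is the gene called in both with opposite signs, -2.56 in WAT and 0.90 in culture.

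Cox8b and Cox7a1 each have a counterpart isoform of broad expression, Cox8a and Cox7a2, so the share of the muscle and brown fat isoform within each pair was computed from levels per kilobase. In WAT the Cox8b share was 18.1%, 22.9% and 8.48% in cKO and 31.5%, 23.5% and 22% in WT libraries. The groups overlapped, with means of 16.5% ± 7.34 in cKO and 25.7% ± 5.10 in WT (SD, n = 3 each). In culture the Cox8b share was 5.97%, 5.86% and 6.51% in KO and 3.53%, 2.12% and 2.65% in WT libraries, with no overlap. The Cox7a1 share in WAT was 15.8%, 19.4% and 6.86% in cKO and 26.6%, 19.9% and 13.4% in WT libraries, again with overlap. In culture the Cox7a1 share was 18.5%, 21.5% and 21.03% in KO and 29.9%, 27.3% and 29.8% in WT libraries, with no overlap. The 2 pairs thus moved in opposite directions in culture. Of the broad isoforms in culture, Cox7a2 was higher in KO (log2 fold change 0.72, SE 0.11, edgeR adjusted p = 0.000153) and Cox8a was at -0.29 (SE 0.12, edgeR adjusted p = 0.0839). In WAT both broad isoforms fell, Cox8a by 1.92 (SE 0.28, edgeR adjusted p = 0.00167) and Cox7a2 by 1.37 (SE 0.26, edgeR adjusted p = 0.00429) on the log2 scale.

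**Figure D5:**
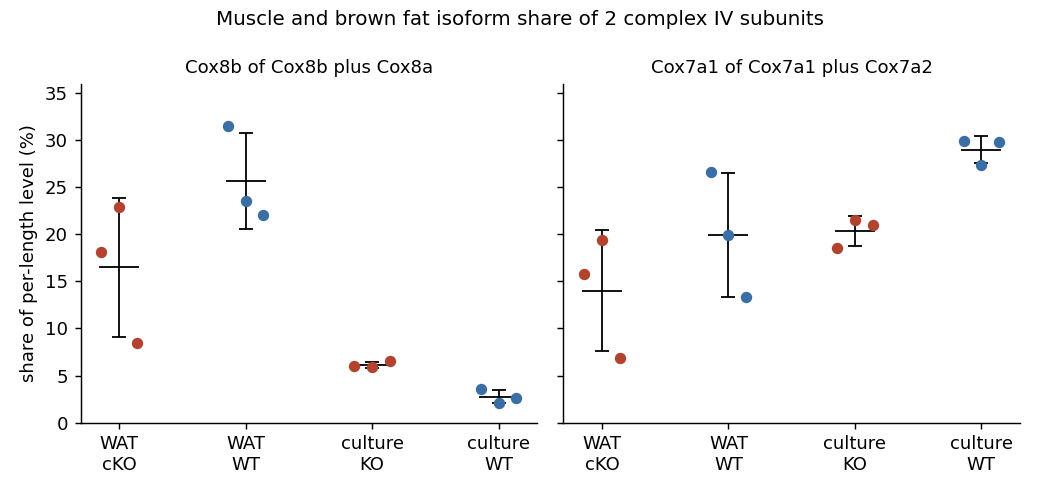
Share of the muscle and brown fat isoform in each pair of cytochrome c oxidase subunits, in percent of the summed level per kilobase; points are libraries, bars the mean and 1 SD (n = 3). In WAT the cKO and WT libraries overlap in both pairs, and in culture the Cox8b share is higher and the Cox7a1 share lower in each KO library than in any WT library.

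Of 13 other nuclear subunits of cytochrome c oxidase tested in WAT, 11 were lower in cKO and none was higher, beside 24.2% lower and 28.2% higher among all genes, with a median log2 fold change of -1.37, against 0.12 for all genes. With library size only 7 were lower and 1 was higher (median -0.70), beside 1427 lower and 8838 higher among all 16293 genes. Cox6a1 fell by 2.18 (SE 0.36, edgeR adjusted p = 0.00263), and Cox7a2l, the supercomplex assembly factor related to Cox7a1, was at -0.27 (SE 0.11, edgeR adjusted p = 0.0782) and passed as higher with library size only (0.41, 0.0137). In culture 5 of the 13 were higher in KO and 1 was lower, beside 8.94% higher and 10.6% lower among all genes. The median was 0.14, and -0.01 after the length and GC correction. The lower one was Cox6a1 (-0.36, SE 0.12, edgeR adjusted p = 0.0341), and Cox7a2 was among the higher.

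Of 13 other effectors of thermogenic fat tested in WAT, 6 were lower in cKO and 2 were higher (median -1.16). For this and the following lists the shares over all genes are 24.2% lower and 28.2% higher in WAT and 10.6% lower and 8.94% higher in culture. With library size only, 1427 of all 16293 genes passed as lower in WAT and 8838 as higher. In culture 5 of 12 were higher in KO and 1 was lower (median 0.37). Cidea, a lipid droplet protein abundant in brown fat, stood at 109.6, 291.7 and 43.0 CPM in cKO and at 1415, 1149 and 809.1 CPM in WT WAT (log2 fold change -2.92, SE 0.66, edgeR adjusted p = 0.00865). In culture it stood at 17.7, 10.96 and 16.2 CPM in KO and at 5.07, 2.27 and 3.09 CPM in WT (2.09, SE 0.24, edgeR adjusted p = 2.69e-06). Like Cox8b it was thus lower in cKO tissue and higher in KO cultures. Acot11, an acyl-CoA thioesterase induced by cold in brown fat, stood at 9.09, 7.69 and 9.29 CPM in cKO and at 63.3, 44.2 and 48.9 CPM in WT WAT (-2.58, SE 0.18, edgeR adjusted p = 0.000413). Ucp2, the relative of Ucp1 found in many cells including macrophages, went the other way, at 638.6, 400.4 and 747.0 CPM in cKO and 158.3, 157.3 and 191.9 CPM in WT WAT (1.82, SE 0.24, edgeR adjusted p = 0.00137). Its highest and lowest cKO libraries were also those with the highest and lowest macrophage sums, and the part of macrophages in it was not tested.

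Among transcriptional regulators of the thermogenic program 5 of 14 were lower and 2 higher in cKO WAT (median -0.00), and with library size only 4 were lower and 7 higher (median 0.68). The 7 called of 14 in WAT are close to the 52.4% called among all genes. In culture 2 of 13 were lower and 2 higher in KO. Pparg, the nuclear receptor that every adipocyte needs, stood at 136.1, 169.7 and 105.5 CPM in cKO and at 321.1, 352.3 and 298.0 CPM in WT WAT (log2 fold change -1.24, SE 0.19, edgeR adjusted p = 0.00215). In culture it was higher in KO (0.52, SE 0.12, edgeR adjusted p = 0.00317). Esrra, the estrogen-related receptor that partners PGC-1 alpha, fell in WAT by 1.03 on the log2 scale (SE 0.12, edgeR adjusted p = 0.00095). Cebpb, a factor induced early in adipogenesis and by cyclic AMP, was lower in KO cultures (-1.40, SE 0.29, edgeR adjusted p = 0.00198), a call that DESeq2 did not make (adjusted p = 0.119). There it stood at 96.2, 98.8 and 20.3 CPM in KO replicates 1 to 3, with replicate 3 far below the others. In the WT cultures it stood at 207.7, 177.1 and 181.5 CPM. It was lower in cKO WAT as well (-1.69, SE 0.38, edgeR adjusted p = 0.00882).

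On the adrenergic and cyclic AMP side 5 of 13 genes were lower and 2 higher in cKO WAT (median -0.10), and with library size only 4 were lower and 5 higher. Prkaca, the catalytic subunit of protein kinase A, fell by 1.65 (SE 0.22, edgeR adjusted p = 0.00129). Creb1, which binds the cyclic AMP response element, rose by 1.29 (SE 0.17, edgeR adjusted p = 0.00118), a call lost after the length and GC correction (0.11, edgeR adjusted p = 0.668). In culture 2 of 13 were lower and 1 higher, with Adcy3, an adenylyl cyclase, at -0.67 (SE 0.12, edgeR adjusted p = 0.000607). Of the genes that handle thyroid hormone beside Dio2, 3 of 7 tested were lower and 1 higher in cKO WAT, among them the receptor gene Thra (-0.999, SE 0.13, edgeR adjusted p = 0.00113) and its partner Rxra (-1.43, SE 0.15, edgeR adjusted p = 0.000661). In culture 3 of 8 were lower and 1 higher in KO.

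Genes of creatine and calcium cycling, a route of heat production that does not use Ucp1, were higher in cKO WAT for 3 of 7 tested and lower for 1 (median 1.48). Gatm, the first enzyme of creatine synthesis, stood at 33.1, 18.3 and 20.3 CPM in cKO and at 5.05, 1.17 and 1.94 CPM in WT WAT (log2 fold change 3.14, SE 0.54, edgeR adjusted p = 0.00323). A numbered copy of Gatm is listed, so its reads may be split. Ckb, creatine kinase B, stood at 267.0, 121.6 and 285.2 CPM in cKO and at 62.7, 73.2 and 70.2 CPM in WT WAT (1.71, SE 0.31, edgeR adjusted p = 0.00377), and it was higher in KO cultures too (0.47, SE 0.12, edgeR adjusted p = 0.00928). In both genes cKO replicate 2, with the lowest macrophage sum and the highest adipocyte sum of its group, was the lowest cKO library. Gatm was highest in cKO replicate 1, and the macrophage sum in cKO replicate 3. The part of other cells in the reads of Gatm and Ckb was not tested. In culture 1 of 6 was higher and 1 lower. Among depot markers 4 of 9 tested were higher and 2 lower in cKO WAT (median 0.53). The 2 with the smallest p were both among the lower, and the rule for naming genes left the 4 higher ones unnamed. The beige marker Tbx1 fell by 2.94 (SE 0.35, edgeR adjusted p = 0.000909), though numbered copies of it are listed, and Hoxc9 fell by 1.13 (SE 0.18, edgeR adjusted p = 0.00239). In culture 1 of 7 was lower, the beige marker Tnfrsf9 (-0.98, SE 0.19, edgeR adjusted p = 0.00112), and none was higher. Of 4 secreted factors tested, 1 was higher and 1 lower in cKO WAT: Metrnl, meteorin-like, rose by 2.84 (SE 0.31, edgeR adjusted p = 0.000747), and Nrg4, neuregulin 4 of brown fat, fell by 1.99 (SE 0.39, edgeR adjusted p = 0.00496). None of the 4 passed in culture, where Nrg4 was at 0.52 (SE 0.23, edgeR adjusted p = 0.112).

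Of 18 close relatives of the 10 genes, 12 were tested in WAT, with 4 higher, 4 lower and 4 not passed in cKO, near the 28.2% higher and 24.2% lower among all genes, and 12 in culture, with 1 higher and 4 lower in KO. Ucp3 was at -1.16 in WAT (SE 0.47, edgeR adjusted p = 0.0756). Slc36a1 and Slc36a4, relatives of Slc36a2, were higher in cKO WAT (0.61, SE 0.16, edgeR adjusted p = 0.0165, and 0.74, SE 0.17, edgeR adjusted p = 0.00961), and the change of Slc36a4 became -0.11 after the length and GC correction. Slc36a1 was lower in KO cultures (-0.76, SE 0.23, edgeR adjusted p = 0.0242). Pprc1, a relative of Ppargc1a, was higher in cKO WAT (0.98, SE 0.18, edgeR adjusted p = 0.00378) and lower in KO cultures (-0.45, SE 0.12, edgeR adjusted p = 0.0107), while Ppargc1b passed in neither. Mecom, the relative of Prdm16, was at 0.33 (SE 0.25, edgeR adjusted p = 0.295) in WAT. Esrrb had 8, 6 and 14 reads in cKO and 19, 31 and 24 reads in WT WAT (-2.23, SE 0.50, edgeR adjusted p = 0.00874) and none in culture. Dio3, which inactivates thyroid hormone, had no read in cKO WAT and 2 in all of WT WAT. In culture it had 37.6, 40.8 and 37.5 CPM in KO and 59.5, 68.4 and 60.0 CPM in WT (-0.70, SE 0.12, edgeR adjusted p = 0.000275), against at most 2 reads of Dio2 in any culture library. Dio1, Kcnk9, Slc36a3, Otop2 and Otop3 had 0 to 3 reads a library and were not tested.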

How the data were processed

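Messenger RNA of 12 libraries in 4 groups of 3 was sequenced from total RNA (TRIzol, MGIEasy mRNA kit, per the labels' protocols). Raw, unnormalized counts of reads per gene were deposited by the authors as 1 table for the tissue and 1 for the cells, and no column was left out. Among tools, the submitters' processing notes list HISAT2 2.1.0, cutadapt 1.11 and FastQC 0.11.2, with the build GRCm38. How reads were counted, with which annotation and strand setting, is not given in the sources used here, so reads of overlapping or antisense genes cannot be told apart. No member has a numbered copy in the tables.

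Each comparison was fitted on its 6 libraries with edgeR 4.0.16 (quasi-likelihood test, R 4.3.3), with TMM scaling and the filterByExpr rule at a minimum count of 10. The interaction used all 12 libraries and symbols in both tables. Adjusted p-values are Benjamini-Hochberg over all genes tested, and SEs are the size of the log2 fold change over the square root of F. Biological coefficients of variation were 0.319 in WAT, 0.114 in culture and 0.227 over both. The tests were tried on simulated data. No 2 libraries of a group were alike within counting error (chi-square over its degrees of freedom from 4.81 to 202).

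The 10 genes and all lists were chosen with earlier results of these data known. Lists are described by counts and medians. The text names all 10, their paralogues, and from each other list the 2 genes with the smallest p in WAT and the 1 in culture, whether or not they passed. A gene that this rule takes is not reported here. Nearest patterns were sought among genes averaging 1 CPM or more in WAT, with a pseudocount of 0.5. Exon lengths are unions of GENCODE exons, and coordinates and upstream windows are from RefSeq, all on GRCm38. Alternatives were RLE factors, library size only, no count filter, DESeq2 1.42.0, limma 3.58.1 voom, a replicate block, 1 fit over all 4 groups, each library left out, summed numbered copies and correction for a trend with transcript length and GC (values for 91.1% of genes in WAT and 98.0% in culture). Leaving out both libraries rich in muscle markers was added after the data were seen.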

Additional observations from a re-analysis of the deposited data

Results flagged for a closer look

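The effect of the knockout in WAT differed from that in culture by edgeR's interaction test for 28 of 41 named genes tested, beside 48.8% of all genes. Genes outside the 10 were named for the smallest p in WAT or in culture, or as relatives of the 10. The share among named genes thus cannot be read against that of all genes. Differences are given as the WAT log2 fold change minus the culture one. Among the 10 thermogenic genes this held for Cox8b (-3.42, adjusted p = 0.00136), Kcnk3 (-1.97, adjusted p = 0.00545), Slc36a2 (-1.83, adjusted p = 0.000928) and Cox7a1 (-1.86, adjusted p = 0.0373). Cox7a1 did not pass when scaled by library size alone (adjusted p = 0.133) or after the length and GC correction (0.0899), and it passed in 3 of 12 fits with a library left out. All 3 cKO libraries were below all 3 WT libraries in WAT for these 4, whereas in culture only Cox8b separated, in the opposite direction. Such separation was common, with 29.3% of all genes fully lower in cKO WAT, and 18.0% fully higher and 18.8% fully lower in KO cultures.

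Of the other 24 genes 6 passed in both comparisons with opposite signs. Cidea (-4.99, adjusted p = 0.000268) was lower in cKO WAT and higher in KO cultures. Pparg (-1.73, adjusted p = 8.08e-05) and Cox7a2 (-2.06, adjusted p = 0.000104) had the same pair of directions. Ucp2 (2.33, adjusted p = 4.5e-05), Pprc1 (1.46, adjusted p = 0.000143) and Slc36a1 (1.43, adjusted p = 0.00464) were higher in cKO WAT and lower in KO cultures. Adipocyte markers moved in the same 2 directions as the first group, with 9 of 10 lower in cKO WAT and 4 of 9 higher in KO cultures. Macrophage markers moved in those of the second, with 9 of 10 higher in cKO WAT and 3 of 10 lower in KO cultures. Among all genes 24.2% passed as lower and 28.2% as higher in WAT, and 10.6% and 8.94% in culture. The part of both marker sets in these differences was not tested.

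The remaining 18 passed in at most 1 comparison or in both with the same sign, with adjusted p for the difference from 2.87e-05 (Metrnl) to 0.0465 (Tnfrsf9). Differences below 0 were found for Tbx1 (-3.23), Acot11 (-2.61), Nrg4 (-2.48), Cox6a1 (-1.79), Cox8a (-1.60), Prkaca (-1.22), Rxra (-0.97), Thra (-0.95), Esrra (-0.83), Hoxc9 (-0.78) and Cox7a2l (-0.38). Differences above 0 were found for Gatm (3.39), Metrnl (3.16), Ckb (1.28), Slc36a4 (1.14), Creb1 (1.10), Tnfrsf9 (1.01) and Adcy3 (0.61). With library size only Rxra, Thra, Esrra, Hoxc9 and Cox7a2l did not pass, and without both muscle-rich libraries Adcy3, Cox7a2l and Tnfrsf9 did not. After the length and GC correction Cox7a2l, Slc36a4, Creb1 and Adcy3 did not, and Cox7a2l and Tnfrsf9 were lost under most fits with a library left out.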

How the results depend on the processing

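In WAT 7 of the 10 genes passed, and 6 to 8 when each library was left out in turn; with both muscle-rich libraries left out 1 passed, and 3712 of all genes in place of 8542. In culture 1 gene passed, 2 with library size only, 3 with the replicate number as a block, 0 with 1 fit over all 4 groups, and 1 to 2 with each library left out. Of all genes 2459 passed in culture, 3824 with the block, 146 with 1 fit over all 4 groups and 897 to 3380 with each library left out, the lowest without WT replicate 2. The cause was not tested, beyond the fewer samples. Replicate numbers were not treated as pairs, since nothing states that they mark shared animals or days. Libraries of the same number deviated together by r = -0.33, 0.03 and -0.23 in WAT and by 0.18, 0.03 and 0.24 in culture. For libraries of different number r ran from -0.01 to 0.34 in WAT and from -0.23 to 0.07 in culture. These values do not decide whether the culture libraries were paired. The block added Ucp1 in WAT (-2.76, edgeR adjusted p = 0.0470) and Ppargc1a (0.60, 0.0465) and Prdm16 (-0.62, 0.0454) in culture. For the difference between the effects 4 genes passed with the block as without it.

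Log2 fold changes that changed sign were all of genes that had not passed, except Slc36a4 in WAT and Creb1 and Cox7a2l for the difference. In WAT Ppargc1a (main value -0.02) was 0.66 with library size only, 0.21 with limma voom, 0.18 with the block and 0.02 with 1 fit over all 4 groups, and -0.47 to 0.60 with each library left out. Esrrg was -0.43 after the length and GC correction and -0.14 to 0.81 with each library left out. Ppargc1b was -0.003 without the muscle-rich libraries and -0.37 to 0.58 with each library left out. Cox7a2l was 0.41 with library size only, where it passed as higher (edgeR adjusted p = 0.0137), and after the length and GC correction Mecom was -0.30 and Slc36a4 -0.11. In culture Ucp1 was 0.005 with no count filter, 0.012 with limma voom, 0.05 with the block and -0.33 to 0.34 with each library left out. With library size only Cox7a1 was -0.022, Slc36a2 -0.008 and Ppargc1b -0.017. After the length and GC correction Cox7a1 was -0.033, Kcnk3 0.016 and Cox7a2l -0.005. With each library left out Cox7a1 ran from -0.05 to 0.11, Ucp3 from -0.40 to 0.31 and Ppargc1b from -0.12 to 0.23. For the difference between the effects Ppargc1a was 0.082 and Prdm16 0.30 with library size only, Cox7a2l was 0.27 with library size only, Esrrg was -0.012 and Creb1 -0.086 after the length and GC correction, and with each library left out Ppargc1a ran from -1.01 to 0.05, Dio2 from -0.79 to 3.38 and Esrrg from -1.93 to 3.21. Depth limits Dio2, Otop1 and Esrrg in culture, with at most 5 reads a library.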
